A study of Mus musculus with 10 samples.

Results

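The 10 genes described here encode proteins of blood clotting and the plasminogen system, and protease-activated receptors: F3, Thbd, Plat, Plau, Plaur, Tfpi, Tfpi2, Procr, F2r and F2rl1. They were listed by name, with F3 put forward for its high level in basal libraries and Thbd for its high level in stromal libraries, so those 2 patterns are given as descriptions and not tested. All 10 were found among 24512 genes with a deposited value. RNA-seq had been run on cells sorted from C57BL/6 mouse prostate, in 10 libraries from 4 flow cytometry gates, all negative for lineage (Lin) markers. The stromal gate (CD24-/CD49f-) gave 2 libraries, the basal gate (CD24low/CD49fhigh) 2, the Sca-1+ luminal gate (CD24high/CD49flow/Sca-1+) 3 and the Sca-1- luminal gate (CD24high/CD49flow/Sca-1-) 3. The mice were 8 to 12 weeks old, and no transgene, deletion or drug distinguished the gates. A culture protocol with serum and dihydrotestosterone is listed for every library, and the labels leave unstated whether these cells went through it. They also do not say whether libraries came from separate or pooled animals, so p-values measure only the spread between these libraries, which may be technical.

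Tissue factor, the product of F3, sits on the surface of cells outside the blood and starts clotting when it meets plasma factor VII; Tfpi blocks that complex. Thrombomodulin (Thbd) and the endothelial protein C receptor (Procr) turn thrombin towards making activated protein C, which limits clotting. The plasminogen activators Plat (tissue type) and Plau (urokinase type) make plasmin, Plaur is the cell surface receptor of urokinase, and Tfpi2 is a Kunitz-type inhibitor of plasmin and related proteases. F2r and F2rl1 encode protease-activated receptors, the first cleaved by thrombin and the second by trypsin-like proteases that include the tissue factor complex. In vessels Thbd and Procr are best known from endothelium, and in many tissues tissue factor marks epithelium and the cells around vessels.

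Levels are FPKM (fragments per kilobase, relative to all mapped fragments of a library), so that genes can be set side by side per length. Between 20326605 and 27236795 mapped fragments per library were estimated from the step that 1 fragment makes in FPKM. Itga6, and Ly6a between the luminal gates, followed the gate labels, though Cd24a did not in every library. Itga6 (CD49f) had 122 and 140.2 FPKM in basal libraries and at most 47.5 FPKM elsewhere, and Ly6a (Sca-1) had 677, 1116 and 2301 FPKM in Sca-1+ luminal libraries, against 54.3, 82.8 and 19.9 FPKM in Sca-1- luminal libraries. Cd24a (CD24) had 25.2 and 57.0 FPKM in stromal libraries, 226 and 199 FPKM in basal libraries, 197, 412 and 1091 FPKM in Sca-1+ luminal libraries, and 743, 838 and 529 FPKM in Sca-1- luminal libraries, so the first Sca-1+ luminal library lay below both basal ones. Summed over 9 fibroblast markers, stromal libraries held 7845 and 6103 FPKM, basal libraries 692 and 512 FPKM, Sca-1+ luminal libraries 5525, 3038 and 386 FPKM (replicates 1, 2 and 3), and Sca-1- luminal libraries 107, 79.7 and 163 FPKM. All 9 of these markers were above 0 in every library. The first 2 Sca-1+ luminal libraries therefore stood apart from the third, the first at 70.4% and the second at 38.7% of the highest stromal sum, and the third at 4.92%. The 10 most abundant transcripts took a larger share of all FPKM in the Sca-1- luminal gate (36.3 to 37.4%) than in any library of the remaining gates (11.2 to 16.3%).

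F3 had 492 and 266 FPKM in stromal libraries, 2172 and 2285 FPKM in basal libraries, 588, 908 and 1016 FPKM in Sca-1+ luminal libraries, and 93.3, 108 and 7.84 FPKM in Sca-1- luminal libraries. The order was basal, Sca-1+ luminal, stromal, Sca-1- luminal, and no library of one gate reached the range of the next. In bulk samples, a lower level can mean fewer expressing cells or less RNA per cell, and the libraries cannot separate these. F3 was higher in the Sca-1+ luminal than in the Sca-1- luminal gate by a log2 fold change of 4.18 (SE 0.82, limma adjusted p = 0.00535, n = 3 each) and higher in the stromal than in the Sca-1- luminal gate by 3.01 (SE 0.92, limma adjusted p = 0.0199). Between the stromal and Sca-1+ luminal gates the difference of -1.17 (95% interval -3.22 to 0.88) did not pass. The contrasts that involve the basal gate chose the gene: as a description, basal minus Sca-1- luminal was 5.63, basal minus Sca-1+ luminal 1.45 and stromal minus basal -2.62 on the log2 scale.

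Plaur, the urokinase receptor, also had its highest mean in the basal gate. It had 132 and 191 FPKM in stromal libraries, 784 and 1412 FPKM in basal libraries, 371, 602 and 1006 FPKM in Sca-1+ luminal libraries, and 78.2, 143 and 6.57 FPKM in Sca-1- luminal libraries. Basal and Sca-1+ luminal libraries overlapped, as did stromal and Sca-1- luminal libraries, while every library of the first pair of gates was above every library of the second. Plaur rose by 4.57 (SE 1.03, limma adjusted p = 0.00546) in the basal over the Sca-1- luminal gate and by 3.78 (SE 0.92, limma adjusted p = 0.0131) in the Sca-1+ over the Sca-1- luminal gate, on the log2 scale. Stromal minus basal was -2.72 (95% interval -5.24 to -0.20, limma adjusted p = 0.117) and did not pass. Plaur followed F3 across the 10 libraries with a Pearson r of 0.963 on log2 values. F3 was put forward for its basal level, so this r is a description. The points also share gates and the same low Sca-1- luminal library. In that library, replicate 3 of its gate, F3, Plaur, Plat, Procr, Thbd and Tfpi2 were all at their lowest of any library, and so were the summed proximal luminal markers, at 366 FPKM against 710.5 and 859.5 FPKM in replicates 1 and 2. Summed basal markers were 51.6 FPKM there, against 238 and 317 FPKM in replicates 1 and 2. Their part in the low levels was not tested.

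**Figure D1:**
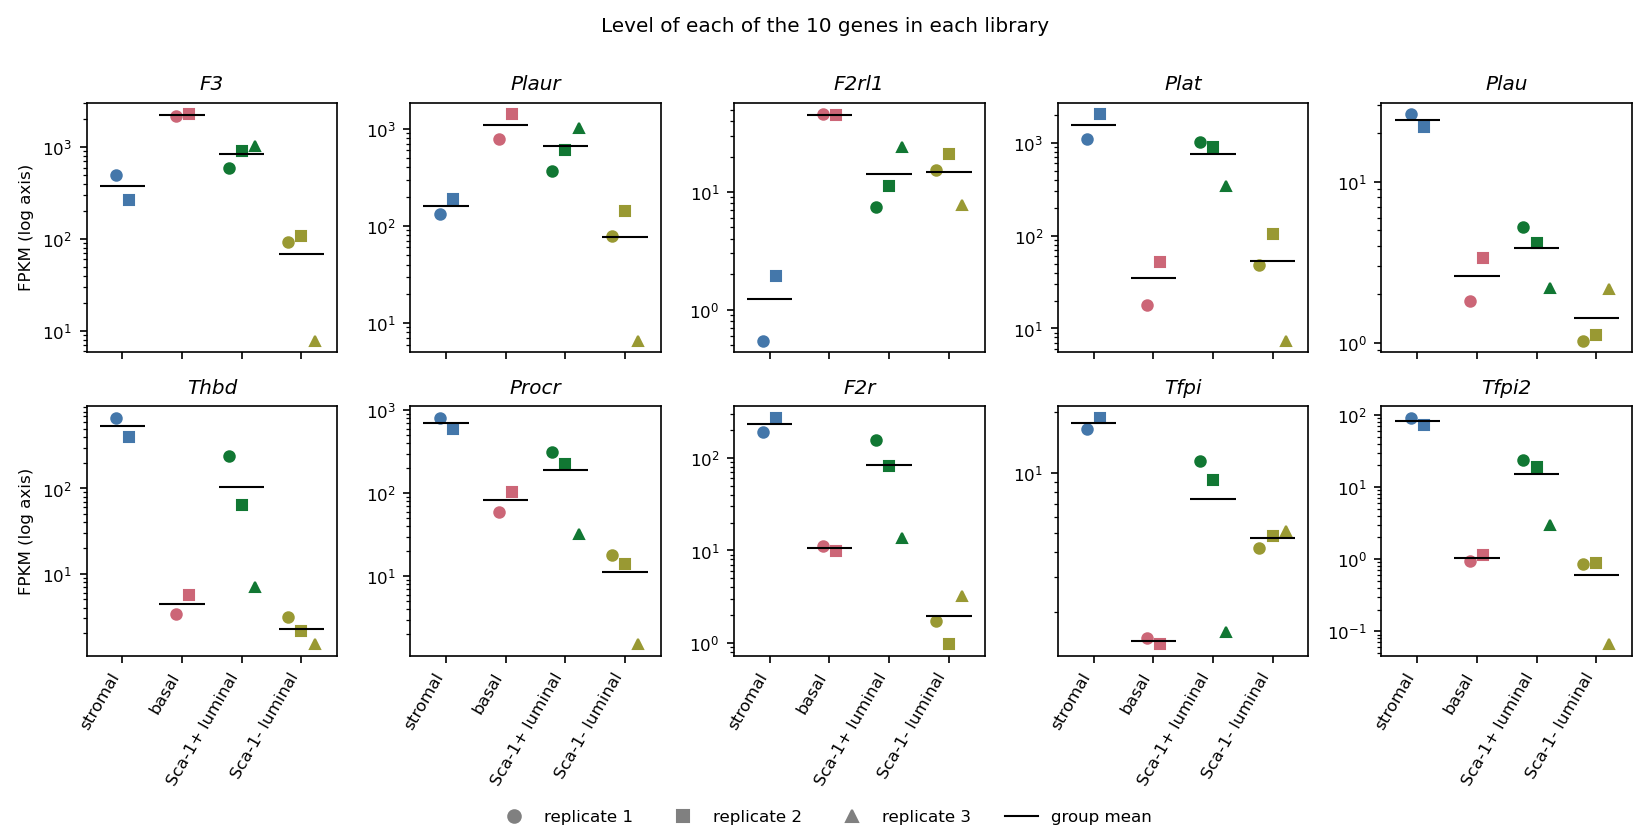
FPKM of each gene on a log axis in every library, by gate, with replicate numbers as symbols and group means as lines. F3 (2172 and 2285 FPKM) and F2rl1 (46.0 and 44.9 FPKM) are highest in the basal libraries, while Thbd, Procr, F2r, Tfpi and Tfpi2 are highest in the stromal libraries and lowest among Sca-1+ luminal libraries in replicate 3.

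The promoter windows of F3 and Plaur are shown because these 2 genes had like patterns across the gates. Each is the 250 bases before the RefSeq start (GRCm38.p6, the mm10 assembly), 5′ to 3′ on the gene's strand, with capitals marking TGANTCA, the AP-1 letters, read on both strands. The F3 window is chr3:121723287-121723536 (plus strand) and the Plaur window chr7:24462233-24462482 (plus strand), both immediately upstream of their genes.
F3: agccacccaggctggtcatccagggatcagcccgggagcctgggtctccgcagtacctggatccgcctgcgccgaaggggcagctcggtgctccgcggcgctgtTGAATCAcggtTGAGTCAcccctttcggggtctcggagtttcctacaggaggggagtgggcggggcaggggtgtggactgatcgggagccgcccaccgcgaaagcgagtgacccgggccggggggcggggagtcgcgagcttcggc
Plaur: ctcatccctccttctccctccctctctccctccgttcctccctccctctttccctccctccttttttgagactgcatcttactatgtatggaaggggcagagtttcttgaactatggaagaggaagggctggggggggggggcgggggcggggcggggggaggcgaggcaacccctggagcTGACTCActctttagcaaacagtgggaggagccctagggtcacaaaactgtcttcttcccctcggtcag
The F3 window held the AP-1 letters 146 and 135 bases before the start, and the Plaur window 69 bases before it. Both also held 3 copies of the GC box GGGCGG, on either strand, and neither held TATAAA. Of 32851 RefSeq mouse windows of 250 bases, 6.75% held TGANTCA, 32.7% GGGCGG and 12.4% TATAAA. The motifs were chosen after the windows had been read, and a match is a run of letters, not a binding site.

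Both Kunitz-type inhibitors were below F3 in every library. Tfpi had 16.6 and 18.8 FPKM in stromal libraries, 1.49 and 1.38 FPKM in basal libraries, 11.4, 9.15 and 1.59 FPKM in Sca-1+ luminal libraries, and 4.20, 4.81 and 5.10 FPKM in Sca-1- luminal libraries. Stromal libraries were above all others and basal libraries below all others, while the Sca-1+ luminal libraries lay on both sides of the Sca-1- luminal ones. Tfpi was higher in the stromal gate than in the basal gate by 2.94 (SE 0.60, limma adjusted p = 0.00812) and than in the Sca-1- luminal gate by 1.72 (SE 0.55, limma adjusted p = 0.0253). Sca-1+ minus Sca-1- luminal was 0.28 (95% interval -0.83 to 1.38) and not called, and its sign turned with the library left out: it was 0.98 without Sca-1+ luminal replicate 3 (limma adjusted p = 0.00588) and -1.13 with that library alone (limma adjusted p = 0.0281).

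Tfpi2 had 91.2 and 72.6 FPKM in stromal libraries, 0.937 and 1.12 FPKM in basal libraries, 23.6, 18.9 and 2.98 FPKM in Sca-1+ luminal libraries, and 0.854, 0.895 and 0.0657 FPKM in Sca-1- luminal libraries. The gates did not overlap, although basal and Sca-1- luminal libraries were close, and the lowest value rested on 2 fragments. Tfpi2 was higher in the stromal gate than in the basal gate by 5.34 (SE 0.73, limma adjusted p = 0.0016), than in the Sca-1+ luminal gate by 2.72 (SE 0.66, limma adjusted p = 0.0251) and than in the Sca-1- luminal gate by 5.73 (SE 0.66, limma adjusted p = 0.000182). Its ratio to Tfpi was 5.50 and 3.86 in stromal libraries, 0.631 and 0.814 in basal libraries, 2.07, 2.06 and 1.87 in Sca-1+ luminal libraries, and 0.204, 0.186 and 0.0129 in Sca-1- luminal libraries. In this ratio all 3 Sca-1+ luminal libraries lay close together, including replicate 3, in which both genes were low.

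Thbd had 676 and 403 FPKM in stromal libraries, 3.34 and 5.55 FPKM in basal libraries, 239.5, 64.7 and 6.96 FPKM in Sca-1+ luminal libraries, and 3.07, 2.09 and 1.48 FPKM in Sca-1- luminal libraries. No library of one gate reached the next, but the third Sca-1+ luminal library was near the basal ones. The stromal contrasts chose the gene: as a description, stromal minus basal was 6.62, stromal minus Sca-1+ luminal 3.38 and stromal minus Sca-1- luminal 7.38 on the log2 scale. Thbd rose by 3.99 (SE 0.96, limma adjusted p = 0.0127) in the Sca-1+ over the Sca-1- luminal gate, and with Sca-1+ luminal replicate 3 as the only library of its gate the difference was 1.34 (limma adjusted p = 0.0627). Basal minus Sca-1+ luminal was -3.23 (95% interval -5.64 to -0.82, limma adjusted p = 0.0618) and passed, at -4.56, only without Sca-1+ luminal replicate 3 (limma adjusted p = 0.000348).

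Procr, whose product presents protein C to the thrombin-thrombomodulin complex, was less restricted. It had 813 and 597 FPKM in stromal libraries, 59.7 and 105 FPKM in basal libraries, 318, 225 and 32.0 FPKM in Sca-1+ luminal libraries, and 18.3, 14.1 and 1.51 FPKM in Sca-1- luminal libraries. Stromal libraries were highest and Sca-1- luminal libraries lowest, and the basal libraries fell inside the Sca-1+ luminal range. Procr was higher than in the Sca-1- luminal gate by 6.27 in the stromal gate (SE 1.03, limma adjusted p = 0.000984), by 3.15 in the basal gate (SE 1.03, limma adjusted p = 0.0303) and by 3.89 in the Sca-1+ luminal gate (SE 0.92, limma adjusted p = 0.0118). Stromal minus basal was 3.12 (95% interval 0.60 to 5.64, limma adjusted p = 0.0756). Thbd over Procr was 0.831 and 0.675 in stromal libraries, 0.0560 and 0.0529 in basal libraries, 0.753, 0.287 and 0.217 in Sca-1+ luminal libraries, and 0.168, 0.148 and 0.975 in Sca-1- luminal libraries, the last from 1.48 and 1.51 FPKM. Basal libraries thus held Procr RNA with little Thbd RNA. One of the 2 Procr transcripts was listed at 178 FPKM in stromal replicate 1 and at 0 in replicate 2, so the sum was used.

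Plat had 1092 and 2031 FPKM in stromal libraries, 18.1 and 51.7 FPKM in basal libraries, 1014, 902 and 346 FPKM in Sca-1+ luminal libraries, and 48.1, 105 and 7.37 FPKM in Sca-1- luminal libraries. Every stromal and Sca-1+ luminal library was above every basal and Sca-1- luminal one, and the basal and Sca-1- luminal libraries overlapped. Plat rose by 4.28 (SE 0.85, limma adjusted p = 0.00569) in the Sca-1+ over the Sca-1- luminal gate, and fell by 4.43 on the log2 scale in the basal gate relative to the Sca-1+ luminal gate (SE 0.95, limma adjusted p = 0.0119). In the stromal gate it was higher than in the basal gate by 5.55 (SE 1.04, limma adjusted p = 0.00546) and than in the Sca-1- luminal gate by 5.41 (SE 0.95, limma adjusted p = 0.00142). Stromal minus Sca-1+ luminal was 1.13 (95% interval -1.01 to 3.26) and did not pass. In Sca-1+ luminal replicate 3, summed fibroblast markers were at 4.92% of their highest library and Plat at 17.0% of its highest, while Thbd was at 1.03%, Procr at 3.94% and F2r at 4.98%.

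Plau, the second activator, was low everywhere by comparison. It had 26.4 and 21.8 FPKM in stromal libraries, 1.81 and 3.35 FPKM in basal libraries, 5.24, 4.19 and 2.19 FPKM in Sca-1+ luminal libraries, and 1.03, 1.12 and 2.15 FPKM in Sca-1- luminal libraries. The stromal libraries were above all others, the basal libraries overlapped both luminal gates, and the Sca-1+ luminal libraries were all above the Sca-1- luminal ones by a narrow margin. Plau was higher in the stromal gate than in the basal gate by 2.84 (SE 0.39, limma adjusted p = 0.0016), than in the Sca-1+ luminal gate by 2.41 (SE 0.35, limma adjusted p = 0.00255) and than in the Sca-1- luminal gate by 3.39 (SE 0.35, limma adjusted p = 0.000104). Sca-1+ minus Sca-1- luminal was 0.98 (SE 0.32, limma adjusted p = 0.0382), a call lost under 11 of 17 alternatives (limma adjusted p up to 0.491), among them leaving out replicate 1 or 2 of either luminal gate, or either stromal library (0.0528 to 0.115). Plaur exceeded Plau by 5.00 and 8.78 times in stromal libraries and by 434 and 422 times in basal libraries. In luminal libraries it did so by 70.8, 144 and 459 times (Sca-1+) and by 76.3, 128 and 3.05 times (Sca-1-). Mean receptor RNA was highest in the basal gate and mean ligand RNA in the stromal gate, although basal and Sca-1+ luminal libraries overlapped for Plaur.

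F2r, the thrombin receptor, had 189.7 and 272 FPKM in stromal libraries, 11.3 and 9.93 FPKM in basal libraries, 157, 81.2 and 13.6 FPKM in Sca-1+ luminal libraries, and 1.74, 0.964 and 3.22 FPKM in Sca-1- luminal libraries. No 2 gates overlapped, and the third Sca-1+ luminal library was next to the basal ones. F2r was higher than in the Sca-1- luminal gate by 6.33 in the stromal gate (SE 0.80, limma adjusted p = 0.00028) and by 4.34 in the Sca-1+ luminal gate (SE 0.72, limma adjusted p = 0.00255). Stromal minus basal was 4.30 (SE 0.88, limma adjusted p = 0.00803).

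F2rl1 ran the other way. It had 0.542 and 1.94 FPKM in stromal libraries, 46.0 and 44.9 FPKM in basal libraries, 7.39, 11.3 and 24.4 FPKM in Sca-1+ luminal libraries, and 15.5, 21.1 and 7.76 FPKM in Sca-1- luminal libraries. Basal libraries were highest, stromal libraries lowest with 34 fragments in replicate 1, and the luminal gates overlapped. F2rl1 fell in the stromal gate by 4.45 on the log2 scale relative to the basal gate (SE 0.56, limma adjusted p = 0.00123), by 2.69 relative to the Sca-1+ luminal gate (SE 0.52, limma adjusted p = 0.00856) and by 2.79 relative to the Sca-1- luminal gate (SE 0.52, limma adjusted p = 0.00181). It was higher in the basal gate than in the Sca-1- luminal gate by 1.66 (SE 0.52, limma adjusted p = 0.0249) and than in the Sca-1+ luminal gate by 1.75 (SE 0.52, limma adjusted p = 0.0404). F2r over F2rl1 was 350.1 and 140.4 in stromal libraries, 0.245 and 0.221 in basal libraries, 21.2, 7.21 and 0.556 in Sca-1+ luminal libraries, and 0.112, 0.0458 and 0.415 in Sca-1- luminal libraries. The thrombin receptor RNA therefore exceeded F2rl1 RNA in both stromal libraries and in Sca-1+ luminal replicates 1 and 2, and was below it in the other 6 libraries. The remaining receptors of the family, F2rl2 and F2rl3, stayed at or below 0.458 FPKM in every library.

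The windows of Procr, F2r and Tfpi2 are shown as 3 genes with their highest levels in the stromal gate, by the same convention and from the same assembly. They are chr2:155750967-155751216 (plus strand) for Procr, chr13:95618467-95618716 (minus strand) for F2r and chr6:3968376-3968625 (minus strand) for Tfpi2, which has 3 RefSeq starts, the one shown being 21 bases from the deposited transcript.
Procr: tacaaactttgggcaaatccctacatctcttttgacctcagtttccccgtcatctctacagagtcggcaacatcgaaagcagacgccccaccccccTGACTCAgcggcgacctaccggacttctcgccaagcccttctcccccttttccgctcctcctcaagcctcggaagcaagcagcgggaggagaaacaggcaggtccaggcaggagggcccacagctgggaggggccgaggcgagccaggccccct
F2r: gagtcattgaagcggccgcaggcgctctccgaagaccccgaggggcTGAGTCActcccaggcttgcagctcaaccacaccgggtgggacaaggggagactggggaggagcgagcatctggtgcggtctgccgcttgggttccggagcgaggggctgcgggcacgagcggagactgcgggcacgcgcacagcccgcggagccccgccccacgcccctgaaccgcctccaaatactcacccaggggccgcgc
Tfpi2: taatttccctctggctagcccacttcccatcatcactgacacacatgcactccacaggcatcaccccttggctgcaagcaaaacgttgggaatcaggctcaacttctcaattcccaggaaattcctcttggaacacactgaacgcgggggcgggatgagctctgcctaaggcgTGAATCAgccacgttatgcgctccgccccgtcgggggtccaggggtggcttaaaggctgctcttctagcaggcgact
The AP-1 letters lay 154 bases before the start in Procr, 204 in F2r and 77 in Tfpi2. In all, 6 of the 10 genes had RefSeq windows, 9 windows in total, and 5 of these 6 genes held TGANTCA in at least 1 window, the exception being Tfpi. They include both genes highest in basal and genes highest in stromal libraries. The count is by gene, with up to 3 windows for a gene, while the share of 6.75% is of single RefSeq windows. The motif was chosen after the windows had been read, so the count is a description.

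**Figure D2:**
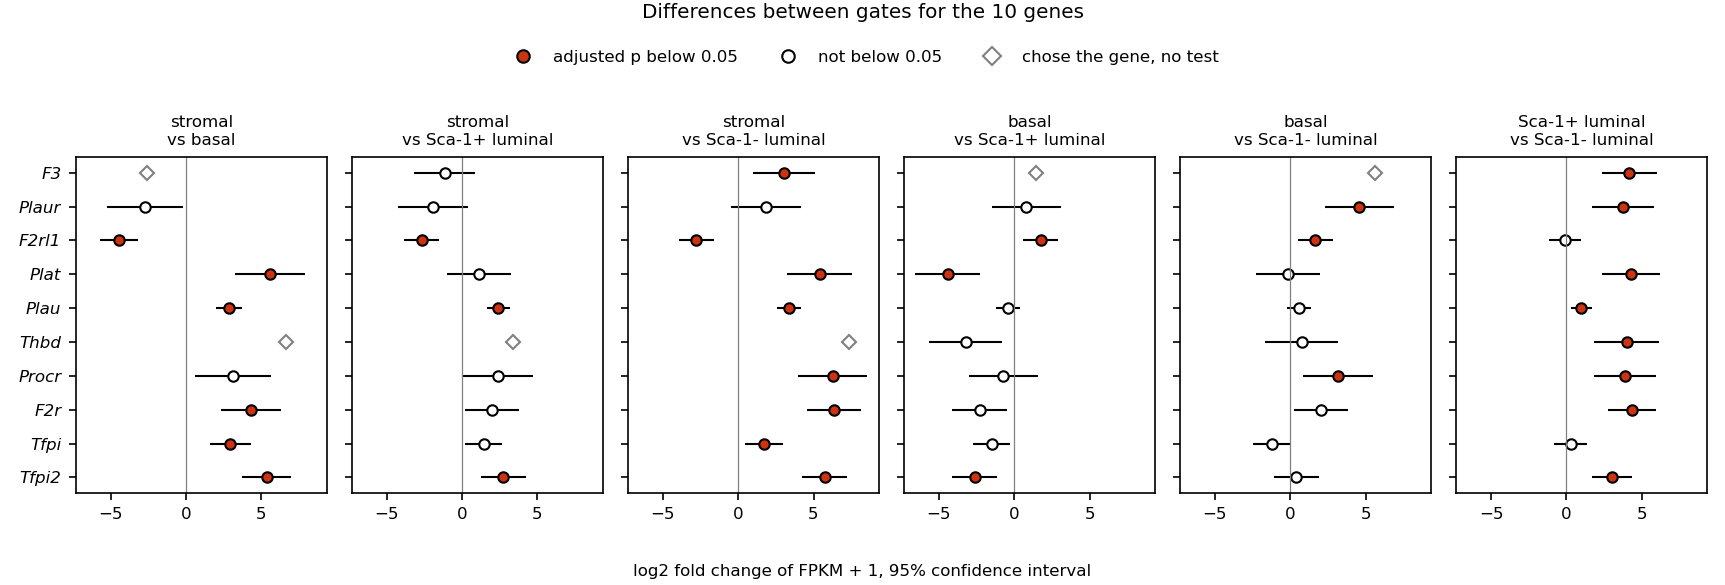
Log2 fold change of FPKM + 1 with 95% confidence intervals for the 10 genes in the 6 comparisons, filled where the limma adjusted p passed and as open diamonds where the contrast chose the gene. F2rl1 lies below 0 in the 3 stromal comparisons (-4.45, -2.69 and -2.79), where Plau and Tfpi2 lie above 0.

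Taken by comparison, 8 of 10 members rose and none fell in the Sca-1+ over the Sca-1- luminal gate, against 21.8% of 12420 tested genes that rose (35.1% in either direction). The members' median log2 fold change was 3.84, against 0.19 over all tested genes. The 2 that were not called were Tfpi and F2rl1. With Sca-1+ luminal replicate 3 as the only library of its gate, 4 members passed: F3, Tfpi2 and F2r rose and Tfpi fell. Thbd, Plat, Plau, Plaur and Procr were not called there (limma adjusted p = 0.0533 to 0.491). With that library alone the log2 fold change was 4.51 for Plaur and 3.30 for Plat, against 3.78 and 4.28 with all 3, and 1.34 for Thbd, 1.87 for Procr and 0.42 for Plau.

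The basal over the Sca-1- luminal gate gave 3 of 9 members that rose (Plaur, Procr and F2rl1) and none that fell, against 20.1% of genes that rose, 26% that fell and 46.1% called in either direction. The median was 0.76, against -0.05 over all tested genes. Procr and F2rl1 lost their calls without basal replicate 1 (limma adjusted p = 0.0801 and 0.108), basal replicate 2 (0.159 and 0.101) or Sca-1- luminal replicate 3 (0.0892 and 0.0795). Leaving out replicate 3 of the Sca-1+ luminal gate, which enters this comparison only through the shared spread, F2r rose (2.03, limma adjusted p = 0.00144) and Tfpi fell (-1.23, limma adjusted p = 0.0012). F2r also passed when replicate 1 of that gate was left out (limma adjusted p = 0.0243).

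The basal over the Sca-1+ luminal gate gave 1 of 9 members that rose (F2rl1) and 2 that fell (Plat and Tfpi2), against 19.8% of genes called in either direction, 4.39% that rose and 15.4% that fell. The median was -1.50, against -0.29 over all tested genes. No call of this comparison held when basal replicate 1 was left out (limma adjusted p = 0.109 for Plat, 0.125 for Tfpi2 and 0.171 for F2rl1), and F2rl1 and Tfpi2 also lost theirs without basal replicate 2 (0.181 and 0.122) or Sca-1+ luminal replicate 2 (0.105 and 0.0731). F2rl1 further lost its call when replicate 1 of the Sca-1+ luminal gate (0.0884) or of the Sca-1- luminal gate (0.0633) was left out. Without Sca-1+ luminal replicate 3, 6 members passed, with Thbd, Tfpi and F2r added among those that fell and F2rl1 still higher.

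The stromal over the basal gate gave 5 of 8 members that rose (Plat, Plau, Tfpi, Tfpi2 and F2r) and 1 that fell (F2rl1), against 13.4% of genes that rose, 9.12% that fell and 22.6% called in either direction. The median was 3.03, against 0.02 over all tested genes. Plat lost its call without basal replicate 1 (limma adjusted p = 0.051), and Tfpi and F2r theirs without basal replicate 2 (0.0529 and 0.0531) or stromal replicate 2 (0.055 and 0.0589). Without Sca-1- luminal replicate 3, Plaur (-2.72, limma adjusted p = 0.0107) and Procr (3.12, limma adjusted p = 0.0433) passed as well, and Procr also did so when replicate 3 of the Sca-1+ luminal gate was left out (limma adjusted p = 0.0148).

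The stromal over the Sca-1+ luminal gate gave 2 of 9 members that rose (Plau and Tfpi2) and 1 that fell (F2rl1), against 1.76% of genes that rose, 11.6% that fell and 13.3% called in either direction. The median was 1.44, against -0.16 over all tested genes. Tfpi2 lost its call without stromal replicate 1 (limma adjusted p = 0.164) or 2 (0.0991), and F2rl1 without stromal replicate 1 (0.102). Without Sca-1+ luminal replicate 1, Tfpi (1.86, limma adjusted p = 0.0309) and F2r (2.72, limma adjusted p = 0.0216) rose too, and Plaur fell when replicate 3 of the Sca-1- luminal gate was left out (-1.93, limma adjusted p = 0.0371).

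The stromal over the Sca-1- luminal gate gave 7 of 9 members that rose (F3, Plat, Plau, Tfpi, Tfpi2, Procr and F2r) and 1 that fell (F2rl1), against 25.2% of genes that rose, 27.4% that fell and 52.6% called in either direction. The median was 3.39, against -0.06 over all tested genes. F3 lost its call without stromal replicate 1 (limma adjusted p = 0.132) or 2 (0.0501), and Tfpi without any 1 of the 5 libraries compared (0.0517 to 0.11). Plaur, at 1.85 (95% interval -0.45 to 4.16), passed only without Sca-1- luminal replicate 2 (2.71, limma adjusted p = 0.0478).

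Ratios of members within a library need no scaling between libraries. F3 over Thbd was 0.727 and 0.66 in stromal libraries, 649 and 412 in basal libraries, 2.46, 14.0 and 146 in Sca-1+ luminal libraries, and 30.4, 51.6 and 5.31 in Sca-1- luminal libraries. Thbd RNA exceeded F3 RNA in the stromal libraries alone of the 10. F3 over Tfpi was 29.6 and 14.1 in stromal libraries, 1462 and 1658 in basal libraries, 51.5, 99.3 and 638 in Sca-1+ luminal libraries, and 22.2, 22.5 and 1.54 in Sca-1- luminal libraries. Plat over Plaur was 8.28 and 10.6 in stromal libraries, 0.0231 and 0.0366 in basal libraries, 2.73, 1.50 and 0.344 in Sca-1+ luminal libraries, and 0.615, 0.732 and 1.12 in Sca-1- luminal libraries. In each of these ratios, Sca-1+ luminal replicate 3 was the library of its gate nearest to the basal libraries. F3 and Thbd were put forward for their basal and stromal levels, so F3 over Thbd is a description of that choice. F3 over Tfpi in basal libraries and Thbd over Procr in stromal libraries rest on the same levels and are descriptions too.

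**Figure D3:**
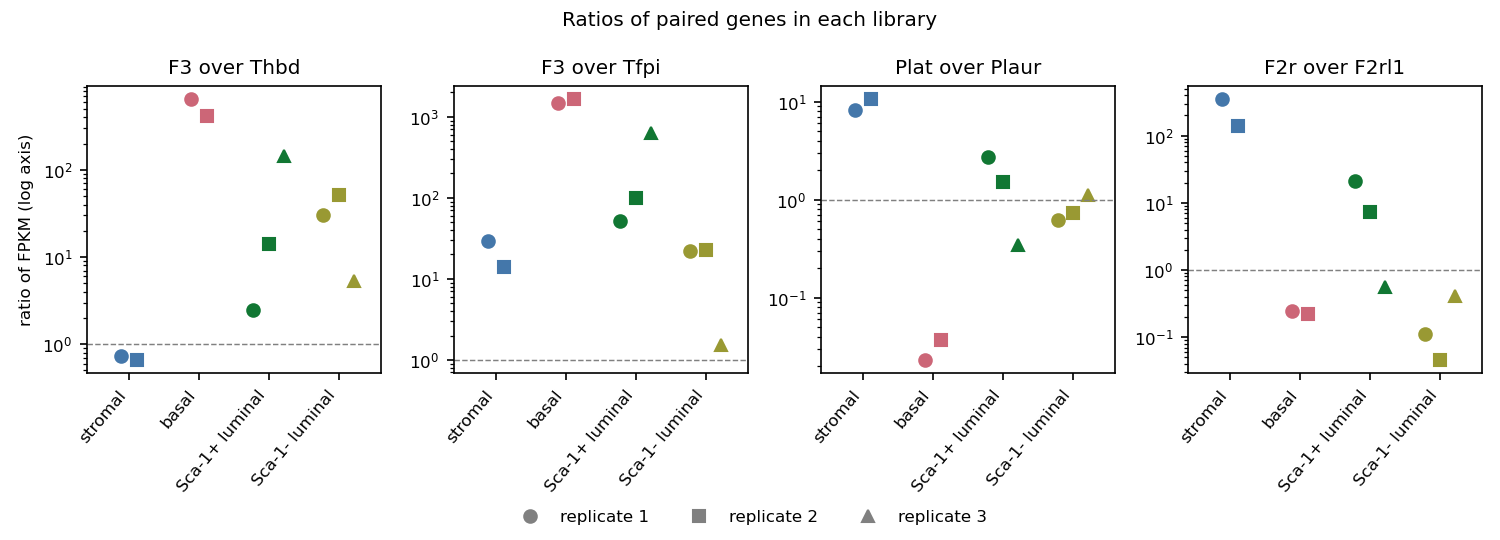
Ratio of FPKM on a log axis for 4 pairs of genes in every library, by gate, with replicate numbers as symbols and a dashed line at 1. F3 over Thbd lies below 1 in both stromal libraries (0.727 and 0.66), and is 649 and 412 in basal libraries.

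Summed over the 10 genes, FPKM was 3529 and 3876 in stromal libraries, 3098 and 3920.5 in basal libraries, 2735, 2826 and 2451 in Sca-1+ luminal libraries, and 264, 401 and 43.1 in Sca-1- luminal libraries. The sums were of like size in the first 3 gates and far lower in the last, but their makeup differed. F3 and Thbd, put forward for their basal and stromal levels, are part of these sums. Sums and makeup are therefore partly a description of that choice. Thbd made up 19.2% of the sum in stromal replicate 1 and 10.4% in stromal replicate 2. F3 and Plaur made up 70.1 and 25.3% of the sum in basal replicate 1 and 58.3 and 36.0% in basal replicate 2. Plat and Procr made up 30.9 and 23.0% of it in stromal replicate 1 and 52.4 and 15.4% in stromal replicate 2. In Sca-1+ luminal replicates 1, 2 and 3, Plat made up 37.1, 31.9 and 14.1% and F3 21.5, 32.1 and 41.5% of the sum.

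The stromal-high genes moved with fibroblast markers among the Sca-1+ luminal libraries. Replicates 1, 2 and 3 of that gate had 5525, 3038 and 386 FPKM of summed fibroblast markers, and Thbd, Procr, F2r, Plat, Plau, Tfpi and Tfpi2 were likewise highest in replicate 1 and lowest in replicate 3. F3, Plaur and F2rl1 were lowest in replicate 1 and highest in replicate 3, as were summed proximal luminal markers (3157, 6696 and 17544 FPKM). Of the 8 basal markers, Krt15 followed the same order (571, 935 and 3225 FPKM), while the other 7 summed to 154, 514 and 91.4 FPKM, lowest in replicate 3. The part of fibroblasts in the Sca-1+ luminal levels was not tested. Endothelial markers, whose cells are known for Thbd, Procr and Tfpi, summed to 10.7 and 16.3 FPKM in stromal libraries, 8.75 and 12.2 FPKM in basal libraries, 40.3, 36.5 and 6.77 FPKM in Sca-1+ luminal libraries, and 21.2, 15.9 and 14.8 FPKM in Sca-1- luminal libraries, over 9 genes of which none was at 0. Among the Sca-1+ luminal libraries this sum was highest in replicate 1 and lowest in replicate 3, the order of Thbd, Procr and Tfpi there. The part of endothelial cells in these levels was not tested. Platelet markers summed to at most 4.47 FPKM in any library, and the pan-leukocyte gene Ptprc was at most 0.288 FPKM. Not all blood cell markers were that low. At least 1 FPKM in 2 or more libraries was reached by 5 of 7 leukocyte, 6 of 7 macrophage and 4 of 5 erythroid genes. All 4 of these erythroid genes were lower in the basal and stromal gates than in the Sca-1- luminal gate (26% and 27.4% of all tested genes). The part of blood cells in the members' levels was not tested.

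**Figure D4:**
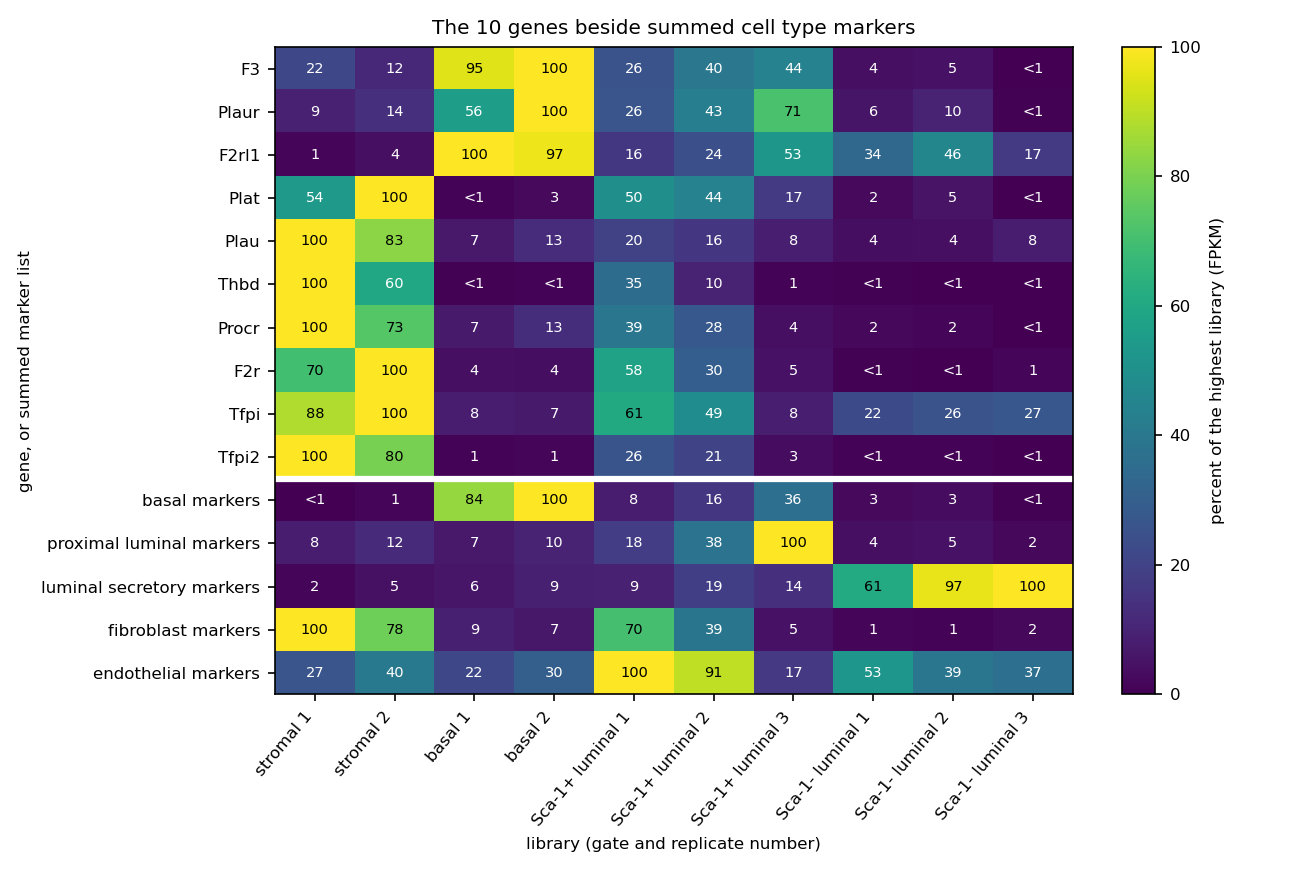
Each gene's FPKM, and the summed FPKM of 5 cell type marker lists, as a percent of the highest of the 10 libraries, with gates from stromal to Sca-1- luminal. Thbd, Procr, F2r, Tfpi and Tfpi2 are brightest in the stromal libraries and fade over the Sca-1+ luminal replicates beside the fibroblast sum (70.4, 38.7 and 4.92% of its highest). F3 and F2rl1 are brightest in the basal libraries. Plaur is brightest in basal replicate 2, with Sca-1+ luminal replicate 3 (71.2%) above basal replicate 1 (55.5%).

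The genes most like each member across the 10 libraries, by Pearson r of log2 values over 7464 genes with at least 10 FPKM somewhere, are given as a description; the libraries share gates and fibroblast content. F3 was followed most closely by Prkx (0.989) and Itgav (0.981), and Plaur by Cast (0.993), Capn2 (0.989) and Hmces (0.988). F2rl1 was followed by the desmosome genes Dsp (0.985) and Pkp3 (0.984) and by Arhgef5 (0.981). Thbd was followed by Mndal (0.997), Adgrd1 (0.995) and Igf1 (0.995), Tfpi2 by Mndal (0.991), Loxl2 (0.990) and Ifi203 (0.990), and F2r by Mmp2 (0.997), Gpc1 (0.997) and Fcgrt (0.996). Procr was followed by Mapk6 (0.981), Ptgs2 (0.980) and Flnc (0.977), Plat by Ctla2a (0.966), Phf11d (0.951) and Ppp1r2 (0.950), Plau by Stac2 (0.972), Adgra2 (0.967) and Ctdnep1 (0.959), and Tfpi by Gadd45g (0.991), Nsmce3 (0.979) and Gsdmd (0.975). Among the members, Thbd and Tfpi2 were most alike (0.989) and F2rl1 and Tfpi most opposed (-0.918).

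The rest of the clotting cascade was little measured. Of 23 listed genes of the cascade and its processing, 22 had a value and 6 passed the filter. The untested ones with a value, among them F2, F7, F10 and the fibrinogen genes, stayed at or below 1.33 FPKM. Factor V (F5) passed through the Sca-1+ luminal gate alone, at up to 4.11 FPKM, and was at 0 in every library of the other gates. The tested ones were mostly helpers of clotting factor synthesis: Vkorc1, Lman1 and Mcfd2 fell in the Sca-1+ relative to the Sca-1- luminal gate (-0.76, -1.06 and -1.14, limma adjusted p = 0.0233, 0.0099 and 0.00811), and Gas6, a vitamin K-dependent ligand of receptor kinases, rose (1.67, limma adjusted p = 0.00577). Those were 1 of 6 that rose and 3 that fell, against 21.8% of all tested genes that rose and 13.3% that fell. Vkorc1, which recycles vitamin K, had 109 and 96.0 FPKM in stromal libraries, 27.2 and 20.4 FPKM in basal libraries, 71.4, 52.8 and 49.6 FPKM in Sca-1+ luminal libraries, and 87.6, 98.5 and 108 FPKM in Sca-1- luminal libraries. It was lowest in the basal libraries, where F3 was highest.

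Of 10 anticoagulant genes, 5 were tested, and the other 5, antithrombin (Serpinc1) among them, were at or below 0.33 FPKM. In the Sca-1+ over the Sca-1- luminal gate 3 of 5 rose and 1 fell (21.8% and 13.3% of all tested genes), and in the basal over the Sca-1- luminal gate 3 rose and 2 fell (20.1% and 26% of all tested genes). Pros1, protein S, the cofactor of activated protein C, had 76.7 and 75.2 FPKM in stromal libraries, 18.5 and 13.6 FPKM in basal libraries, 61.1, 31.2 and 8.91 FPKM in Sca-1+ luminal libraries, and 2.57, 2.75 and 2.58 FPKM in Sca-1- luminal libraries, an order like that of Thbd among the Sca-1+ luminal libraries. Serpine2, a thrombin inhibitor, had 341 and 219.6 FPKM in stromal libraries, 19.0 and 12.2 FPKM in basal libraries, 338, 145 and 52.6 FPKM in Sca-1+ luminal libraries, and 118, 67.1 and 156 FPKM in Sca-1- luminal libraries. It fell in the basal gate relative to the Sca-1- luminal gate (-2.73, limma adjusted p = 0.00809, but 0.0669 without basal replicate 2) and was higher in the stromal than in the basal gate (4.08, limma adjusted p = 0.00446). Anxa5 and Hs3st1, which encode a phospholipid-binding protein and a heparan sulfate sulfotransferase, rose in the basal over the Sca-1- luminal gate by 2.19 and 3.47 (limma adjusted p = 0.000792 and 6.75e-05). Both also rose over that gate in the Sca-1+ luminal (2.01 and 2.90) and stromal gates (2.71 and 2.88, limma adjusted p = 0.000199 to 0.00172 for all of these).

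Plasminogen itself (Plg), Serpinf2 and Cpb2 were at or below 0.22 FPKM in every library, while 17 of the 20 listed genes of the plasminogen system were tested. In the Sca-1+ over the Sca-1- luminal gate 10 of 17 rose and 1 fell, against 21.8% of all tested genes that rose and 13.3% that fell, and the list's median log2 fold change was 1.39, against 0.19 over all tested genes. Counts of this list, like those of the other pathway lists, were not rerun with a library left out. In the basal over the Sca-1- luminal gate 7 rose and 2 fell (20.1% and 26% of all tested genes), and in the basal over the Sca-1+ luminal gate none rose and 2 fell, close to the 4.39% and 15.4% of all tested genes. The stromal gate had 7 that rose and 2 that fell against basal (13.4% and 9.12% of all tested genes), 4 and 3 against Sca-1+ luminal (1.76% and 11.6%), and 12 and 3 against Sca-1- luminal (25.2% and 27.4%). Anxa2 and S100a10, which together bind plasminogen and tissue-type activator at the cell surface, rose against the Sca-1- luminal gate in the stromal, basal and Sca-1+ luminal gates, by 2.19, 2.71 and 3.08 for Anxa2 and by 3.49, 3.50 and 3.19 for S100a10 (limma adjusted p = 0.00137 to 0.0302). Clec3b (tetranectin), which binds plasminogen kringles, had 237 and 85.8 FPKM in stromal libraries and 33.7, 12.4 and 5.91 FPKM in Sca-1+ luminal libraries. It had at most 1.24 FPKM in basal and Sca-1- luminal libraries.

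Of 16 listed protease receptors, their G proteins and surface proteases, 13 were tested. In the Sca-1+ over the Sca-1- luminal gate 3 rose and none fell (21.8% and 13.3% of all tested genes), in the basal over the Sca-1- luminal gate 3 rose and 4 fell (20.1% and 26%), and in the basal over the Sca-1+ luminal gate 2 rose and 4 fell (4.39% and 15.4%). The share that rose in the first comparison, and both shares in the second, were near those of all tested genes. The stromal gate had 2 that rose and 3 that fell against basal (13.4% and 9.12% of all tested genes), 0 and 3 against Sca-1+ luminal (1.76% and 11.6%), and 4 and 4 against Sca-1- luminal (25.2% and 27.4%). Prss8, prostasin, a membrane protease of epithelia, had 2.28 and 7.25 FPKM in stromal libraries, 16.1 and 22.6 FPKM in basal libraries, 59.0, 94.3 and 155 FPKM in Sca-1+ luminal libraries, and 133, 123 and 62.2 FPKM in Sca-1- luminal libraries. It fell in the stromal gate against the basal gate (-1.95, limma adjusted p = 0.0327) and in the basal gate against the Sca-1- luminal gate (-2.34, limma adjusted p = 0.00471). Itgav, a subunit of a vitronectin receptor that cooperates with Plaur, rose against the Sca-1- luminal gate in each of the other gates. It did so by 3.26 in the basal (limma adjusted p = 0.000378), 2.43 in the Sca-1+ luminal (limma adjusted p = 0.00246) and 2.05 in the stromal gate (limma adjusted p = 0.00408).

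**Figure D5:**
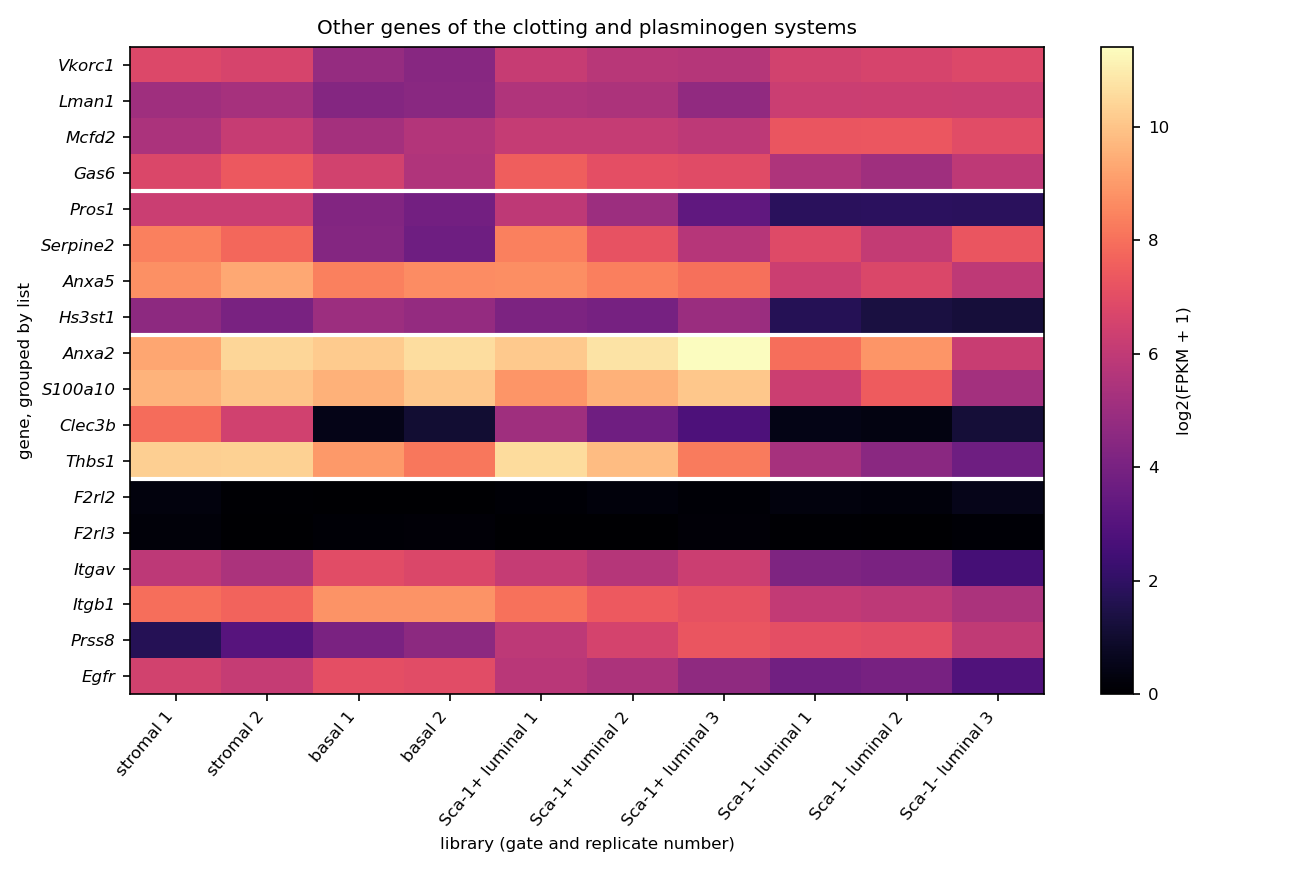
Log2(FPKM + 1) of 18 genes named from the clotting, anticoagulant, plasminogen and receptor lists, grouped by list, in every library from stromal to Sca-1- luminal. Each of Anxa2, S100a10 and Thbs1 is brighter in every library outside the Sca-1- luminal gate than in any library of that gate. F2rl2 and F2rl3 are dark in all 10.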

How the data were processed

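RNA-seq of 10 libraries in 4 gates was used. Per the submitters' processing notes, bcl2fastq 1.8.3, TopHat and Cufflinks were run on mm10, with no version named for either aligner or quantifier. The authors deposited FPKM with confidence bounds for 63241 UCSC transcripts per library; the deposited coverage column was not used. Here transcripts were given genes by mm10 locus (GENCODE M21, RefSeq GRCm38.p6; 83.7% named), those under 300 nt left out (8006), and FPKM summed per gene; no other annotated gene overlapped a member. Genes with at least 1 FPKM in 2 or more libraries (12420) were fitted on log2(FPKM + 1), which understates changes of low genes, with limma 3.58.1 (1 fit over 10 libraries, trended variance), Benjamini-Hochberg adjustment over all genes and calls at 0.05, two-sided. FPKM is not a count, so no count test was run. The fit was tested on simulated data. The labels carry no replicate numbers and no batch; replicates are numbered in accession order.

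The members and gene lists were chosen with earlier results of these data known. Named pathway genes were, per list, the 4 tested genes with the highest group mean, plus F2rl2 and F2rl3 (Serpine2, also named by the rule, was already among the 4); 2 other genes that the rules name are not reported here. Alternatives were another pseudocount (0.1), no filter, 2 scalings, short transcripts kept, 2-gate fits, and each library left out. They were followed for the members, Serpine2 and the counts of all genes called. Calls of the other pathway genes and the list counts come from the main fit alone.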

Additional observations from a re-analysis of the deposited data

How the results depend on the processing

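Of the log2 fold changes, few turned sign, each in a comparison where the gene was not called. Leaving out 1 library, Sca-1+ minus Sca-1- luminal ran from -0.15 to 0.98 for Tfpi, -0.54 to 0.26 for F2rl1 and -0.29 to 1.04 for Serpine2, and basal minus Sca-1- luminal ran from -1.18 to 0.65 for Plat. With Sca-1+ luminal replicate 3 as the sole library of its gate, Sca-1+ minus Sca-1- luminal was -1.13 for Tfpi, 0.79 for F2rl1 and -1.01 for Serpine2, and basal minus Sca-1+ luminal was 0.13 for Plau and 1.28 for Procr; quantile normalization gave Plau 0.044 there. The lone library is assumed to vary like the others, and the cause was not tested.

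Counts of members called, with 1 library left out, ran from 7 to 9 (Sca-1+ over Sca-1- luminal), 1 to 5 (basal over Sca-1- luminal), 0 to 6 (basal over Sca-1+ luminal), 4 to 8 (stromal over basal), 1 to 5 (stromal over Sca-1+ luminal) and 6 to 8 (stromal over Sca-1- luminal). Counts of all genes called ran, in the same order, from 2693 to 5189 (4355 with all libraries), 3670 to 6401 (5725), 593 to 3565 (2460), 1139 to 3569 (2801), 378 to 3020 (1655) and 4320 to 7056 (6536). With no filter, 1 member passed in basal over Sca-1- luminal and 1 in basal over Sca-1+ luminal, against 3 in each; with only the 2 gates' libraries, 5 and 1 did, and 1 in stromal over Sca-1+ luminal, where 610 genes passed (1263 in basal over Sca-1+ luminal). With Sca-1+ luminal replicate 3 alone in its gate, members called were 4 (1991 genes) in Sca-1+ over Sca-1- luminal, 5 in basal over Sca-1- luminal, 0 in basal over Sca-1+ luminal and 6 (3770 genes) in stromal over Sca-1+ luminal.

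Scaling by median ratios or quantiles moved the median of all genes by up to 0.38 (basal minus Sca-1+ luminal). The share of calls that were higher was 46 and 40.4% under them, against 62.2%, in Sca-1+ over Sca-1- luminal, 46.1 and 53%, against 22.2%, in basal over Sca-1+ luminal, and 32.8 and 37.4%, against 13.2%, in stromal over Sca-1+ luminal. The percents of all tested genes that rose or fell, set beside members and lists above, come from the fit without these scalings. In these comparisons they depend on that choice. Adding to Tfpi a transcript without a gene symbol inside its locus, an alternative chosen after seeing the data, left each of its calls as it was. No paired analysis was possible because the labels carry no replicate numbers. Intervals and fragment steps cover counting or library spread only, and Tfpi2 in Sca-1- luminal libraries, at 2 fragments in the lowest, is limited by depth.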
